A study of Mus musculus with 48 samples.

Results

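Sleeve-operated mice were compared here with sham-operated mice that ate freely, in enteroendocrine cells sorted from the ileum. The libraries were taken by their tissue and condition labels, which gave 6 ileum libraries labelled VSG and 5 labelled S_al, or 11 of the 48 libraries of the series. VSG (vertical sleeve gastrectomy) mice had, per the sample labels, about 70% of the stomach removed and sutured. The study also gave VSG mice weekly vitamin injections (cyanocobalamin), which cannot be told apart from the operation here. S_al (sham, ad libitum) mice were opened and had a suture placed without pressure. A further group, S_wm (5 ileum libraries), had the sham operation and was fed to match the weight of VSG mice. All groups were lean male mice of the strain labelled Neurod1-cre-eYFP, operated at about 20 weeks of age and kept on standard chow apart from liquid diet around surgery. Tissue was taken 6 weeks after the operation, after an overnight fast and about 15 min after a glucose gavage of 3 g/kg, so that every group carries the fast, the gavage and the reporter. The ileum stands for the bottom 15 cm of the small intestine. The reporter marks the cells and descendants of cells that have switched on Neurod1 and therefore all enteroendocrine cell types together, and 1 library came from each mouse. In such bulk samples, fewer cells of a type and less RNA per cell cannot be told apart.

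Enteroendocrine cells (EECs) are scattered hormone-secreting cells of the gut lining. They sense sugars, fats, amino acids and bile acids through receptors and transporters, fire calcium and cAMP signals, and release peptides from granules built with chromogranins. In the ileum, L cells that make GLP-1 (from Gcg) and PYY and cells that make neurotensin (Nts) are prominent. After sleeve surgery, plasma GLP-1 and PYY rise more steeply after a meal, and the comparison asks whether the cells themselves carry another set of transcripts.

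The 11 libraries held between 4823339 and 11478914 counts, with the deepest from VSG mouse 18, and 17420 to 21265 genes had a count in a library. The defining EEC genes Chga, Chgb, Scg2 and Neurod1 summed to 33210 to 44460 CPM (a gene's counts relative to the total of its library, scaled by edgeR's TMM method) in S_al libraries and to 33300 to 81680 CPM in VSG libraries. Each of the 4 was counted in every library. Genes of the ileum against the colon summed to 6489 to 23390 CPM in the 16 ileum libraries and to 477.5 to 1071 CPM in colon libraries. The S_al library of mouse 12 carries a description code of the colon but 9569 CPM of these ileum genes, and it was used under its ileum label. Enterocyte markers summed to 11230 to 23110 CPM in S_al and 7460 to 26420 CPM in VSG libraries, and of the 21 immune markers 15 were under 1 CPM on average. The second library index, which the titles give, was D501 for 2 S_al and 3 VSG libraries, D503 for 2 S_al and 3 VSG libraries, and D504 for S_al mouse 12 alone.

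No gene reached an adjusted p of 0.05 between VSG and S_al ileum by edgeR's quasi-likelihood test, 0 of the 15126 tested (0%). The lowest adjusted p was 0.0793, for Clps. At an unadjusted p under 0.05 by edgeR there were 932 genes (6.16%), 484 of them higher (3.2%) and 448 lower (2.96%) after VSG. DESeq2 called 5 of 14830 genes (0.0337%), namely Clps, Pnliprp2, Maob, Ces1g and Ccn3, and each of them was lower after VSG. Limma voom, with a random effect for the mouse, called 0. The median log2 fold change of all tested genes was 0.00691 and the median standard error 0.262. In the 500 most variable genes, the 2 groups accounted for 11.7% of the summed squares among the 11 libraries (exact permutation test over all partitions into 6 and 5 libraries, one-sided, p = 0.297). Every VSG library lay above every S_al library for 44 genes (0.291%) and below every one for 39 genes (0.258%).

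**Figure D1:**
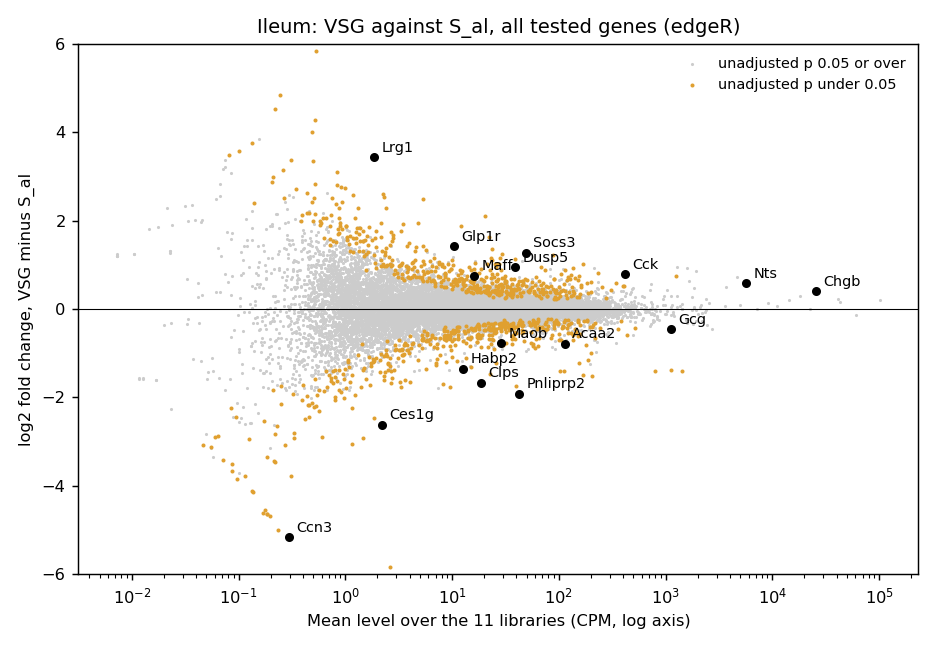
Each point is a tested gene, with its mean level over the 11 ileum libraries (CPM, log axis) and its log2 fold change between VSG and S_al from edgeR; orange points have an unadjusted p under 0.05 and black points are named. The orange genes lie on both sides of 0, and the 5 genes called by DESeq2 (Clps, Pnliprp2, Maob, Ces1g and Ccn3) lie below it; 15103 genes are drawn, without Plekhh2, which lies beyond a log2 fold change of 6, and without those at 0 in all 11 libraries.

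The 2 lowest p values belonged to genes of fat digestion. Clps encodes colipase, the cofactor of pancreatic lipase, at chromosome 17, bases 28558149 to 28560766, of GRCm38. It stood at 70.5, 21.7, 13.2, 15.7 and 26.7 CPM in S_al mice 32, 24, 19, 13 and 12, and VSG libraries ran from a lowest of 4.46 over a median of 7.89 to a highest of 19.2 CPM. Of the 6 VSG libraries only that of mouse 28 (19.2 CPM) reached into the S_al range. The log2 fold change was -1.66 (standard error, SE, 0.323, edgeR adjusted p = 0.0793, DESeq2 adjusted p = 0.00629), a 3.17-fold lower level. With 1 library left out, the edgeR adjusted p of Clps ran from 0.00249 without VSG mouse 28 to 0.437 without S_al mouse 32, where the log2 fold change was -1.06. It was also below 0.05 without S_al mouse 24, 19 or 13, and above it without any of the other 6 libraries.

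Pnliprp2, a pancreatic lipase-related enzyme that cleaves galactolipids, stood at 189, 29.9, 29.7, 38.5 and 65.3 CPM in the same S_al mice and between 12.7 and 27.8 CPM (median 18.6) after VSG. All VSG libraries were below all S_al libraries, while S_al mouse 32 stood far above the others. Its log2 fold change was -1.92 (SE 0.39, edgeR adjusted p = 0.104, DESeq2 adjusted p = 0.0115), and it ranged from -2.11 to -1.14 with 1 library left out (edgeR adjusted p from 0.0257 to 0.479). Habp2, a secreted serine protease that binds hyaluronan, had 43.1, 11, 5.5, 17.1 and 18.5 CPM in S_al and 4.35 to 11.5 CPM (median 7.5) in VSG libraries. These ranges overlap, with S_al mouse 32 again the highest, and the log2 fold change was -1.35 (SE 0.33, edgeR adjusted p = 0.281). With 1 library left out its adjusted p ran from 0.0421 (without S_al mouse 19) to 0.834 (without S_al mouse 12), and without S_al mouse 32 the log2 fold change was -0.83.

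Transcripts of Paneth cells, the crypt cells that secrete antimicrobial defensins and lysozyme, differed in the same direction as these 3 genes. Of 13 tested Paneth markers 11 had an unadjusted p under 0.05 by edgeR, each lower after VSG, against 2.96% of all tested genes, and the median log2 fold change was -1.41 against 0.00691. Their sum was 1994 to 14070 CPM in S_al and 1317 to 4197 CPM in VSG libraries, with S_al mouse 32 at 14070 and S_al mouse 19 at 1994 CPM. Pnliprp2 is itself 1 of the markers, and 1 of the 14 markers was not tested because of low counts. Lyz1, the Paneth lysozyme, had 4160, 1600, 688, 1760 and 2470 CPM in S_al mice 32, 24, 19, 13 and 12 and 398 to 1350 CPM (median 722) after VSG, with a log2 fold change of -1.39. Itln1, a lectin of Paneth and goblet cells, had -1.41, the defensin Defa24 -1.37 and the ribonuclease Ang4 -1.41. Lyz1, Itln1, Defa24 and Ang4 were named after their values were seen, and the defensin, lysozyme and angiogenin genes have close paralogs, so that the counts of single members are uncertain. Without S_al mouse 32, 2 of the 13 markers had an unadjusted p under 0.05 by edgeR, against 2.71% of all genes lower in that fit, and the median was -0.947. Between S_wm and S_al ileum libraries 11 of the 13 were likewise at an unadjusted p under 0.05 and lower (4.02% of all genes were lower in that comparison, which shares the S_al libraries), with a median of -1.32, and between VSG and S_wm the median was -0.0647. The part of Paneth cell RNA in the values of Clps, Pnliprp2 and Habp2 was not tested.

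**Figure D2:**
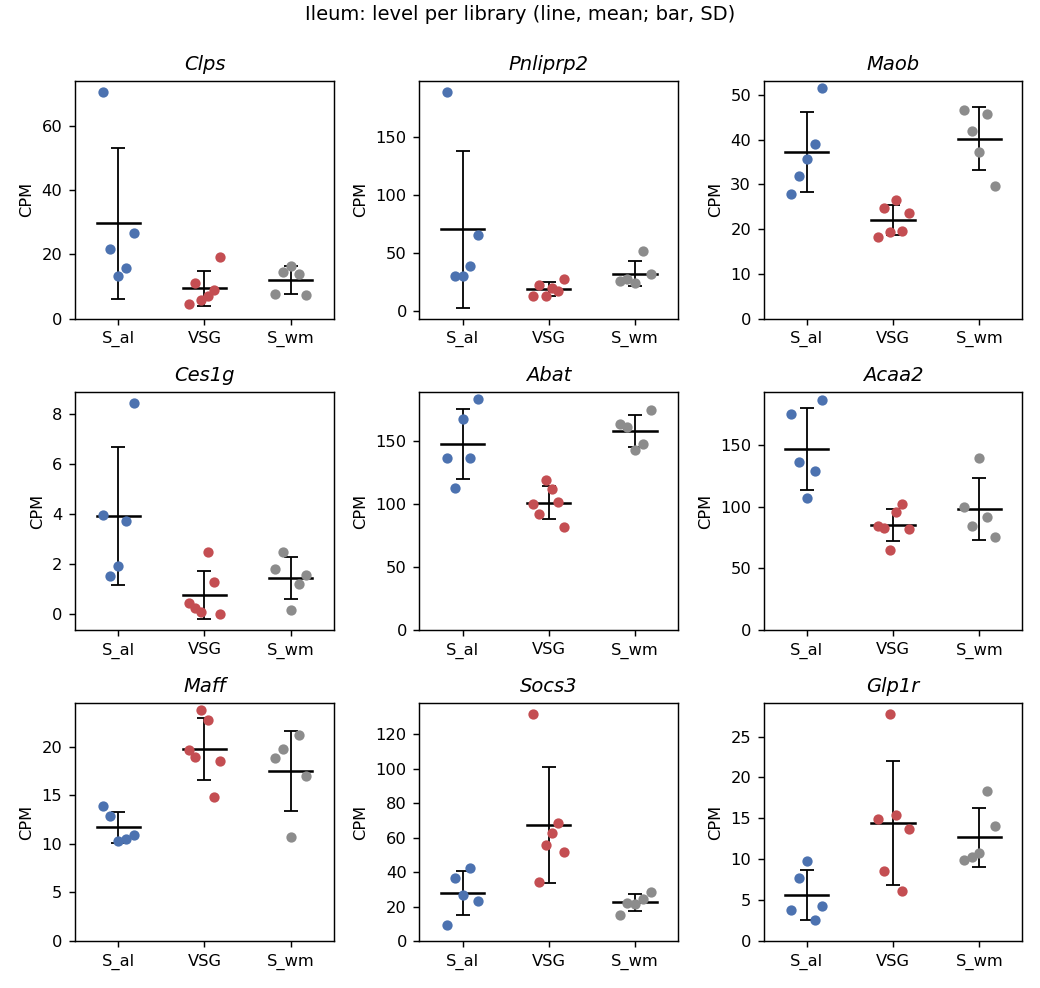
Level of 9 genes (CPM) in each ileum library of S_al (blue, 5), VSG (red, 6) and S_wm (grey, 5) mice, with the mean as a line and the SD as a bar. VSG libraries lie below all S_al libraries for Pnliprp2, Maob and Acaa2 and above them all for Maff, whereas Clps, Ces1g, Abat, Socs3 and Glp1r overlap between the groups.

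The lower genes by p included Maob and Abat. Maob, monoamine oxidase B of the mitochondrial outer membrane, lies on chromosome X from 16709282 to 16817366 and was counted at 27.9, 31.8, 35.6, 39.1 and 51.4 CPM in S_al mice 32, 24, 19, 13 and 12. The VSG libraries ran from 18.3 over a median of 21.6 to 26.5 CPM, all below the lowest S_al library. The log2 fold change was -0.77 (SE 0.166, edgeR adjusted p = 0.14, DESeq2 adjusted p = 0.0271), it stayed between -0.86 and -0.62 with 1 library left out, and on the log2(CPM + 1) scale it was -0.51 within index D501 and -0.67 within D503. Maob is a gene the study annotated on these samples, so its direction here is not independent evidence. Abat, the GABA transaminase, had 137, 113, 168, 137 and 184 CPM in S_al and 82.1 to 119 CPM (median 101) after VSG. Only VSG mouse 18 (119 CPM) lay above the lowest S_al library, and the log2 fold change was -0.55 (SE 0.131, edgeR adjusted p = 0.249). Against S_wm libraries, which share the VSG libraries with this comparison, Maob had -0.88 (edgeR adjusted p = 0.0209) and Abat -0.65 (adjusted p = 0.0313), and between S_wm and S_al they had 0.11 and 0.10. Maob was the only one of the 14 enterochromaffin cell genes at an unadjusted p under 0.05 by edgeR, and the median of that list was 0.0572. Of all tested genes 2.96% were lower at that level.

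Ces1g and Ccn3 were called by DESeq2 at low levels. Ces1g, a carboxylesterase of lipid handling, had 3.98, 1.5, 1.91, 3.71 and 8.46 CPM in S_al and between 0 and 2.48 CPM (median 0.331) in VSG libraries. VSG mouse 30 at 2.48 CPM overlapped the S_al range, and the log2 fold change was -2.62 (SE 0.608, edgeR adjusted p = 0.249, DESeq2 adjusted p = 0.019). It was -2.02 in the duodenum and 0.15 in the colon. Ccn3, a secreted matricellular protein, had 17 counts over 3 of the 5 S_al libraries and 0 in every VSG library. No fold change is given for it.

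On the higher side the genes described first are Maff, Dusp5 and Socs3. Maff, a small MAF transcription factor, lies on chromosome 15 from 79346621 to 79359076 and had 13.9, 12.9, 10.3, 10.5 and 10.9 CPM in S_al mice 32, 24, 19, 13 and 12. VSG libraries ran from 14.8 over a median of 19.4 to 23.8 CPM, all above the highest S_al library. The log2 fold change was 0.76 (SE 0.182, edgeR adjusted p = 0.249), with a range of 0.69 to 0.83 when 1 library was left out, 0.59 within index D501 and 0.77 within D503. Dusp5, a nuclear phosphatase of ERK, had 30.3, 26, 27.7, 23.5 and 22.3 CPM in S_al and 28.8 to 102 CPM (median 42.4) after VSG. VSG mice 11 and 18 held the lowest and the highest value, the groups overlapped only at 28.8 against 30.3 CPM, and the log2 fold change was 0.95 (SE 0.227, edgeR adjusted p = 0.249), or 0.60 at its lowest with 1 library left out. Socs3, the feedback inhibitor of JAK and STAT signalling, had 9.29, 36.5, 26.8, 42.6 and 23.3 CPM in S_al and 34.4 to 132 CPM (median 59.3) after VSG. VSG mouse 22 (132 CPM) was far above the others, and the log2 fold change was 1.28 (SE 0.331, edgeR adjusted p = 0.374).

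The other genes picked by lowest p were, on the higher side, Cadm4, a cell adhesion molecule (log2 fold change 0.96), Sec61a2, a subunit of the endoplasmic reticulum translocon (1.02), Zc3h10 (0.65), the tyrosine kinase gene Tnk2 (0.64), the Mediator subunit gene Med27 (0.70), the amino acid transporter gene Slc38a6 (1.61) and Trp53inp2, a regulator of autophagy (0.51). On the lower side they were Lbh (-0.82), Tmem129 (-0.73) and Thumpd3 (-0.45). Zc3h10 and Tnk2 were above, and Tmem129 and Thumpd3 below, in every VSG library compared with every S_al library. EdgeR adjusted p values of these genes were between 0.287 for Lbh and 0.399. Sec61a2, Zc3h10, Tnk2, Med27, Habp2, Tmem129 and Thumpd3 share bases with a gene on the opposite strand, and whether the counting used the strand is not given in the sources used here, so their counts are uncertain. The same holds for Ghrl, Mt2, Ppp1r15a, Pcsk1n, Neurod1, Syt7, Rapgef4, Slc2a1, Tifa, Acadvl, Dusp1, Duoxa2 and Ccl25, which are named further on. Plekhh2 also met the rule, with a log2 fold change of -14.1, but 552662 counts (11.3% of the library) lay in S_al mouse 19 against 0 to 28 counts in each of the other 10 libraries. Without that library its log2 fold change was 0.86.

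Gut peptide genes showed no called change. Of the 11 genes, 3 had an unadjusted p under 0.05 by edgeR, each higher after VSG (3.2% of all genes were), 8 had a positive log2 fold change, and the median was 0.585. Cck, the satiety peptide cholecystokinin, had 187, 558, 317, 243 and 170 CPM in S_al and 396 to 679 CPM (median 485) in VSG libraries. Its groups overlapped because S_al mouse 24 reached 558 CPM, and the log2 fold change was 0.80 (95% interval 0.07 to 1.52, edgeR adjusted p = 0.768). Sct, secretin, had 1080, 1230, 906, 570 and 777 CPM in S_al and 963 to 2910 CPM (median 1312) after VSG, with the highest value in mouse 25 and a log2 fold change of 0.74 (95% interval 0.11 to 1.37). Ghrl, the hunger peptide ghrelin, had 75, 91.4, 51.9, 20.1 and 19.3 CPM in S_al and 14.4 to 227 CPM (median 124) after VSG. VSG mouse 11 had the lowest value of all 11 libraries, and the log2 fold change was 1.22 (95% interval 0.30 to 2.14, edgeR adjusted p = 0.653). Between VSG and S_wm the log2 fold changes of Sct, Cck and Ghrl were -0.01, 0.26 and 0.48.

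No change was called in the L cell genes or in Nts. Gcg, which encodes the precursor of GLP-1, had 1460, 1800, 1100, 1220 and 1070 CPM in S_al and 644 to 1510 CPM (median 904) after VSG. The groups overlapped, with VSG mouse 11 (1510 CPM) above all S_al libraries but that of mouse 24. The log2 fold change was -0.46 (95% interval -1.35 to 0.44, edgeR adjusted p = 0.978). Pyy, the ileal brake peptide, had 513, 570, 615, 448 and 772 CPM in S_al and 474 to 1750 CPM (median 787) after VSG, where mouse 25 was highest. Its log2 fold change was 0.56 (95% interval -0.26 to 1.37). Nts, neurotensin, had 4840, 5450, 4660, 3260 and 4260 CPM in S_al and 3130 to 13700 CPM (median 5326) after VSG, again highest in mouse 25, with a log2 fold change of 0.59 (95% interval -0.14 to 1.31). The intervals of Pyy and Nts include both 0 and 1.

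Of the remaining peptides, the incretin gene Gip had a log2 fold change of 0.72 (95% interval -0.46 to 1.90), somatostatin (Sst) 0.63 (-0.41 to 1.67) and the tachykinin precursor Tac1 0.30 (-0.42 to 1.01). Insl5, a peptide of colonic L cells, was at 1.14 CPM on average after VSG and 1.09 CPM in S_al, and Gast had 0 counts in the 11 libraries. On the scale of CPM per kilobase of exon, the order of mean levels in S_al was Gip at 4980 ± 3620 (SD, n = 5), Nts at 3600 ± 652, Sst at 1760 ± 1340, Sct at 1410 ± 399, Pyy at 925 ± 194, Gcg at 891 ± 203, Cck at 226 ± 121, Tac1 at 110 ± 25.6 and Ghrl at 47.8 ± 29.9. The neighbours Gip and Nts, Sst and Sct, Pyy and Gcg, and Cck and Tac1 differed by less than the larger of their SDs. The VSG means followed the same order, with Pyy at 1360 ± 739 (SD, n = 6) and Gcg at 648 ± 222.

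**Figure D3:**
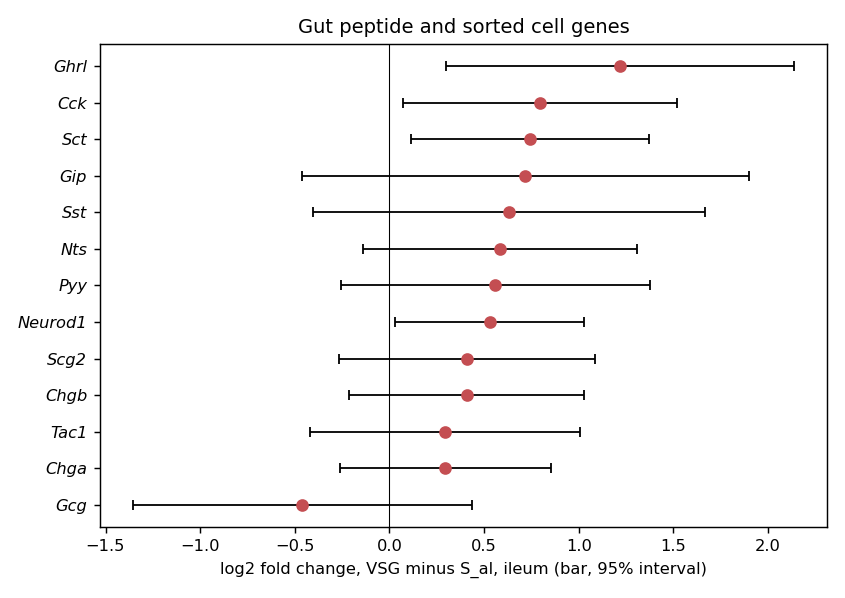
Log2 fold change between VSG and S_al ileum libraries of gut peptide genes and of the 4 defining EEC genes, with 95% intervals from edgeR (bars). The intervals of Cck, Sct, Ghrl and Neurod1 lie above 0 before adjustment for the number of genes and those of the other genes include it; Gcg lies on the negative side at -0.46.

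Genes of the granules and of EEC identity leaned to the higher side without a called member. Of 14 granin and prohormone processing genes 14 had a positive log2 fold change (0.17 to 1.36, median 0.369), and 2 had an unadjusted p under 0.05 by edgeR, Pcsk1n, which encodes an inhibitor of prohormone convertase 1 (log2 fold change 0.73), and Vgf, which encodes a granule peptide precursor (0.64), against 3.2% of all genes higher at that level. Chgb and Chga, the chromogranins, had 0.41 and 0.30. The sum of the list was highest in VSG mouse 18, and without that library 0 members had an unadjusted p under 0.05 by edgeR and the median was 0.286. Of 26 transcription factors of EECs 22 were positive, and Rfx6 (0.51), Pdx1 (0.98) and Neurod1 (0.53), which drive endocrine fate, had an unadjusted p under 0.05, against the same 3.2% of all genes. That count was 0 without S_al mouse 13 or without S_al mouse 12. In the colon the medians of these lists were -0.352 and -0.357. Between S_wm and S_al ileum libraries, which share the S_al libraries with this comparison, the medians were 0.352 and 0.312. Between VSG and S_wm they were 0.00537 and 0.00958. For VSG against S_al in the ileum, the median of all tested genes was 0.00691. Enterocyte, goblet, tuft and crypt stem markers had medians of -0.242, -0.373, -0.403 and -0.312 there. Enteric neuron and glia markers (5 tested) had 0.679 and the 1 tested pancreatic acinar marker 0.525. The part of the makeup of the sorts in the values of the granin and transcription factor lists was not tested.

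Among 33 tested nutrient and hormone receptors, Glp1r, the receptor of GLP-1, had the lowest p. It lies on chromosome 17 from 30901817 to 30940791 and had 3.76, 7.67, 9.81, 2.56 and 4.23 CPM in S_al and 6.16 to 27.8 CPM (median 14.3) after VSG. VSG mice 11 and 25 overlapped the S_al range and VSG mouse 18 was highest. The log2 fold change was 1.43 (SE 0.4, edgeR adjusted p = 0.399, DESeq2 adjusted p = 0.0987), from 1.10 to 1.70 with 1 library left out, 1.35 within index D501 and 0.95 within D503 on the log2(CPM + 1) scale. In S_wm libraries it had 9.86 to 18.3 CPM, with a log2 fold change between VSG and S_wm of 0.20. Gpr35, a receptor proposed for kynurenic acid, had -0.59 and was the only receptor at an unadjusted p under 0.05 on the lower side, where 2.96% of all genes were. Of 31 ion channels and nutrient transporters, 3 had an unadjusted p under 0.05 by edgeR, each higher after VSG, among them Slc7a5, a carrier of large neutral amino acids (0.46), and Slc2a1, the glucose transporter GLUT1 (0.40). Of 24 genes of vesicle exocytosis, the calcium sensors Syt5 (0.65) and Syt7 (0.59) and the Rab effector Rph3al (0.43) did, and of 21 cAMP signalling genes Rapgef4, the cAMP-activated exchange factor EPAC2 (0.57). The 3.2% of all genes on that side is the share to read them against.

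Genes of fat oxidation, many of them targets of the nuclear receptor PPAR alpha, were mostly on the negative side. Of 22 tested genes 10 had an unadjusted p under 0.05 by edgeR and a negative log2 fold change, against 2.96% of all genes, 21 were negative, and the median was -0.405. Acaa2, the last enzyme of mitochondrial beta-oxidation, had 175, 136, 107, 129 and 187 CPM in S_al mice 32, 24, 19, 13 and 12 and 64.9 to 102 CPM (median 83.4) after VSG. Every VSG library was below every S_al library, and the log2 fold change was -0.79 (SE 0.218, edgeR adjusted p = 0.399). Ppara, the nuclear receptor that switches these genes on in fasting, had -0.64 (SE 0.206, edgeR adjusted p = 0.519), and Cyp4a10, a fatty acid hydroxylase, -3.05 at under 1 CPM in every VSG library. That value of Cyp4a10 rested on S_al mouse 32 (7.74 CPM, against at most 1.5 CPM in the other S_al libraries), and it was -1.75 without that library. Cpt1a, Cpt2, Acadvl, Acadm, Acot2 and Ech1 were also among the 10, with log2 fold changes between -0.72 and -0.34, and were named after their values were seen. Without S_al mouse 12 the count was 6 (2.2% of all genes were lower at that level in that fit) and the median -0.326. With the second index as a covariate in the ileum libraries the count was 5 of 21 (1.78% of all genes). Between S_wm and S_al 8 of the 22 had an unadjusted p under 0.05 and were lower (4.02% of all genes were), with a median of -0.312. Between VSG and S_wm 0 were, with a median of -0.122. In the colon the median was 0.266. Stard4, a carrier of cholesterol within cells, was the only cholesterol gene of 26 at an unadjusted p under 0.05. It was lower, as were 2.96% of all genes at that level, so the count is near the share of all genes. Stard4 had 93.5, 105, 90.4, 87.6 and 156 CPM in S_al against 56 to 83 CPM after VSG, which do not overlap, and a log2 fold change of -0.59.

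**Figure D4:**
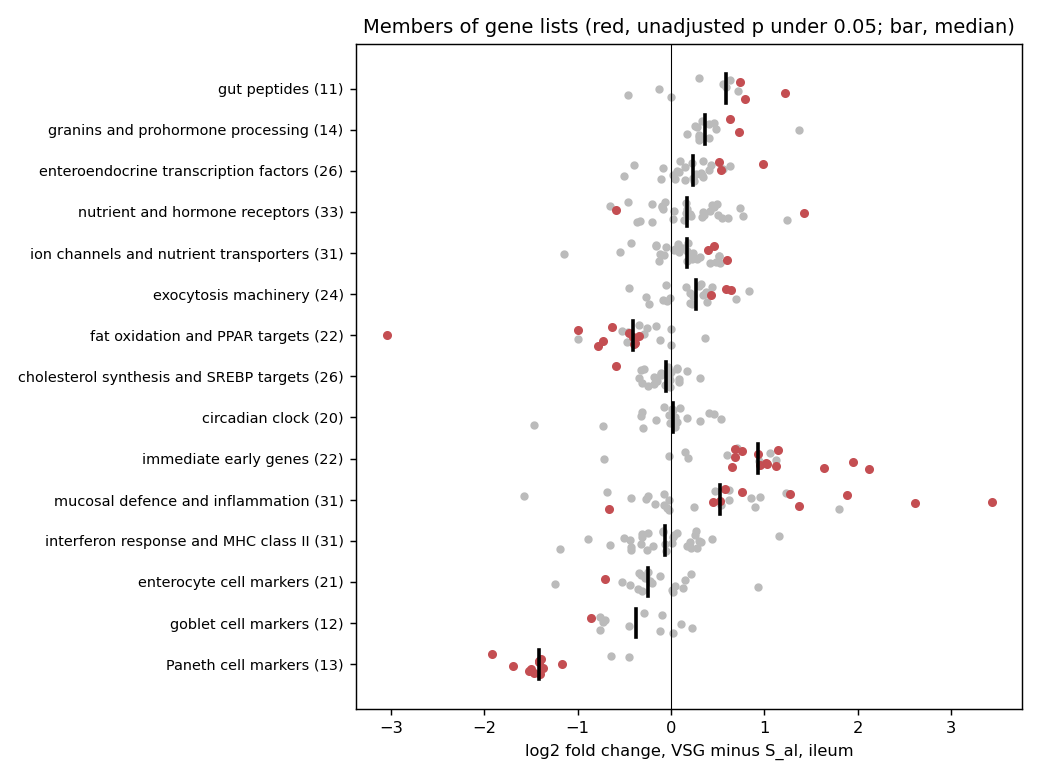
Log2 fold change between VSG and S_al in the ileum for each tested member of 15 lists (points; the number tested is in brackets), with the median as a black bar; red points have an unadjusted p under 0.05 by edgeR. Paneth markers and fat oxidation genes lie on the negative side (medians -1.41 and -0.405) and immediate early genes on the positive side (0.934), while the clock and interferon lists centre near 0.

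Immediate early genes, which neurons and endocrine cells switch on within minutes of calcium or cAMP signals, gave the highest median of all lists other than cell markers. Of 22 tested genes 13 had an unadjusted p under 0.05 by edgeR, each higher after VSG against 3.2% of all genes, and the median log2 fold change was 0.934. Atf3, a stress-induced transcription factor, had 12.8, 7.85, 9.33, 7.93 and 13.3 CPM in S_al and 6.42 to 71.3 CPM (median 34.9) after VSG. VSG mice 22 (6.42 CPM) and 28 (7.13 CPM) were below all S_al libraries and the other 4 were above them all, with a log2 fold change of 1.64 (SE 0.517, edgeR adjusted p = 0.519). Nr4a2, an orphan nuclear receptor, had 16.1, 25.8, 25.6, 17.4 and 15.8 CPM in S_al and 25.5 to 42.4 CPM (median 31.5) after VSG, with a log2 fold change of 0.68. The sum of the list was 840.2 to 1687 CPM in S_al libraries and 1081 to 4483 CPM in VSG libraries, and VSG mouse 18 alone made the upper end. This library was the deepest, had the highest sum of EEC genes and the lowest sum of enterocyte markers. Without it 5 of 22 genes had an unadjusted p under 0.05 by edgeR, against 2.1% of all genes higher in that fit, and the median was 0.395. With the second index as a covariate in the ileum libraries 7 of 21 genes did, against 1.94% of all genes higher. The study took the tissue apart with EDTA and trypsin, stained the cells and sorted them before lysis, between the gavage and the RNA. The parts of this handling, of depth and of the makeup of this sort in the values of the list were not tested.

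Of these genes, 3 carry a full cAMP response element (TGACGTCA, a palindrome and so the same on both strands) in the window from 250 bases before to 50 after the RefSeq start (GRCm38.p6). They are shown because a promoter with this letter run is where CREB-type factors can act, and the run is in capitals in the 250 bases before each start. Maff lies at chr15:79347270-79347519 on the plus strand, Btg2 at chr1:134079156-134079405 and Dusp1 at chr17:26508473-26508722, both on the minus strand, and the run starts 29, 166 and 143 bases before the start.
Maff: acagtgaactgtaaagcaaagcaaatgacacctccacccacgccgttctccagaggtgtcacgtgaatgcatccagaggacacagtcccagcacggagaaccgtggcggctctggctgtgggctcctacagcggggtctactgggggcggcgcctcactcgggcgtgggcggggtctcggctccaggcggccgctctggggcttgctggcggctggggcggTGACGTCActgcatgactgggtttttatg
Btg2: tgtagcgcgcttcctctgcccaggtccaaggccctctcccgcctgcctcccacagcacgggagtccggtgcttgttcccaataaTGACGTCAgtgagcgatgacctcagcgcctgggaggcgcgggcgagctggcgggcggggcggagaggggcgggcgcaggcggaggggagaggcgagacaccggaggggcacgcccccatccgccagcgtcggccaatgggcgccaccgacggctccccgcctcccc
Dusp1: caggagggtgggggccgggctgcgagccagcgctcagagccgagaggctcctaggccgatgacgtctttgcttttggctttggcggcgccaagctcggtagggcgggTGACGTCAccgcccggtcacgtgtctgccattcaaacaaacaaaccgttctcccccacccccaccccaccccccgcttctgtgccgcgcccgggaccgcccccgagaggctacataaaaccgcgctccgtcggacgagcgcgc
The run was in 549 of 27025 genes with a listed promoter (2.03%), in 385 of 10934 tested genes (3.52%) and in 3 of the 17 tested immediate early genes that had a listed promoter (17.6%). Btg2, an antiproliferative gene, had a log2 fold change of 0.65 and Dusp1, a phosphatase of MAP kinases, 1.13. A match is a description of the letters and not of binding. The share among immediate early genes is a property of the chosen list and not of the VSG difference, and it was not tested.

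Genes of mucosal defence were on the higher side in most cases at this level of p. Of 31 tested genes 9 had an unadjusted p under 0.05 by edgeR and were higher (3.2% of all genes were), 1 (the chemokine gene Ccl25) was lower (2.96% of all genes were), and the median log2 fold change was 0.525. Besides Socs3 these were Nfkbia, the inhibitor of NF-kB (0.45), Lrg1 (3.44) and Saa1 (1.88), secreted acute phase proteins, and Lcn2, Duoxa2, Nfkbiz, Zc3h12a and Tifa. Saa1 had 1.55, 7.85, 0.718, 2.43 and 10.6 CPM in S_al and 3.07 to 58.6 CPM (median 11.2) after VSG, with mouse 25 highest, and Lrg1 was at 0 in VSG mouse 30 and reached 7.44 CPM in VSG mouse 11. Without VSG mouse 25 the log2 fold change of Saa1 was 1.08 and without S_al mouse 12 it was 2.46, and that of Lrg1 was 4.50 without S_al mouse 24. The antimicrobial lectin Reg3b, at 443 to 2360 CPM in S_al and 916 to 4270 CPM after VSG, had 0.85 (95% interval -0.46 to 2.16). Reg3b, Zc3h12a and Tifa are genes the study annotated on these samples, so their direction here is not independent evidence. The list itself was chosen with earlier results of these data known. Against S_wm, 15 of the 31 genes had an unadjusted p under 0.05 and were higher (3.79% of all genes were). Socs3 (1.59, edgeR adjusted p = 0.0473) and Lrg1 (6.10, edgeR adjusted p = 0.0313) were among the 7 genes called in that comparison (0.0463%). Lrg1 lay near the floor in both sham groups, at 0.16 CPM in S_wm mouse 29 and 0 in the other S_wm libraries. The S_al libraries held 8 counts of it together, so the sizes of its log2 fold changes are uncertain. In the duodenum 15 of the 31 were higher at an unadjusted p under 0.05 (1.34% of all genes were), from other libraries of largely the same mice. Without VSG mouse 28, VSG mouse 22 or S_al mouse 32 the ileum count was 5, against 3.76%, 3.12% and 3.77% of all genes higher in those fits.

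Glucocorticoid and metal response genes went both ways, with 3 of 18 higher and 3 lower at an unadjusted p under 0.05 by edgeR, against 3.2% and 2.96% of all genes. The metallothioneins Mt2 (-1.34, SE 0.379) and Mt1 (-0.68) were on the lower side. Mt2 had 21.2, 13.5, 22.5, 12.5 and 24.3 CPM in S_al and 2.93 to 14.9 CPM (median 7.59) after VSG, where mouse 25 (14.9 CPM) overlapped the S_al range. The S_wm libraries, at 4.32 to 10.5 CPM, lay below all S_al libraries. Zbtb16, a glucocorticoid-induced zinc finger gene, had a log2 fold change of 2.49 that rested on VSG mouse 18 (41.8 CPM, against at most 3.54 CPM in any of the other 10 libraries), and it was as low as 0.32 with 1 library left out. Of 20 clock genes and of 31 interferon and MHC class II genes 0 had an unadjusted p under 0.05 by edgeR, and their medians were 0.016 and -0.0646. Of 26 genes of the unfolded protein and integrated stress response, Ppp1r15a, a phosphatase subunit of stress recovery, was the only one (1.15, with VSG mouse 18 at 89.8 CPM). It was higher, as were 3.2% of all genes at that level.

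**Figure D5:**
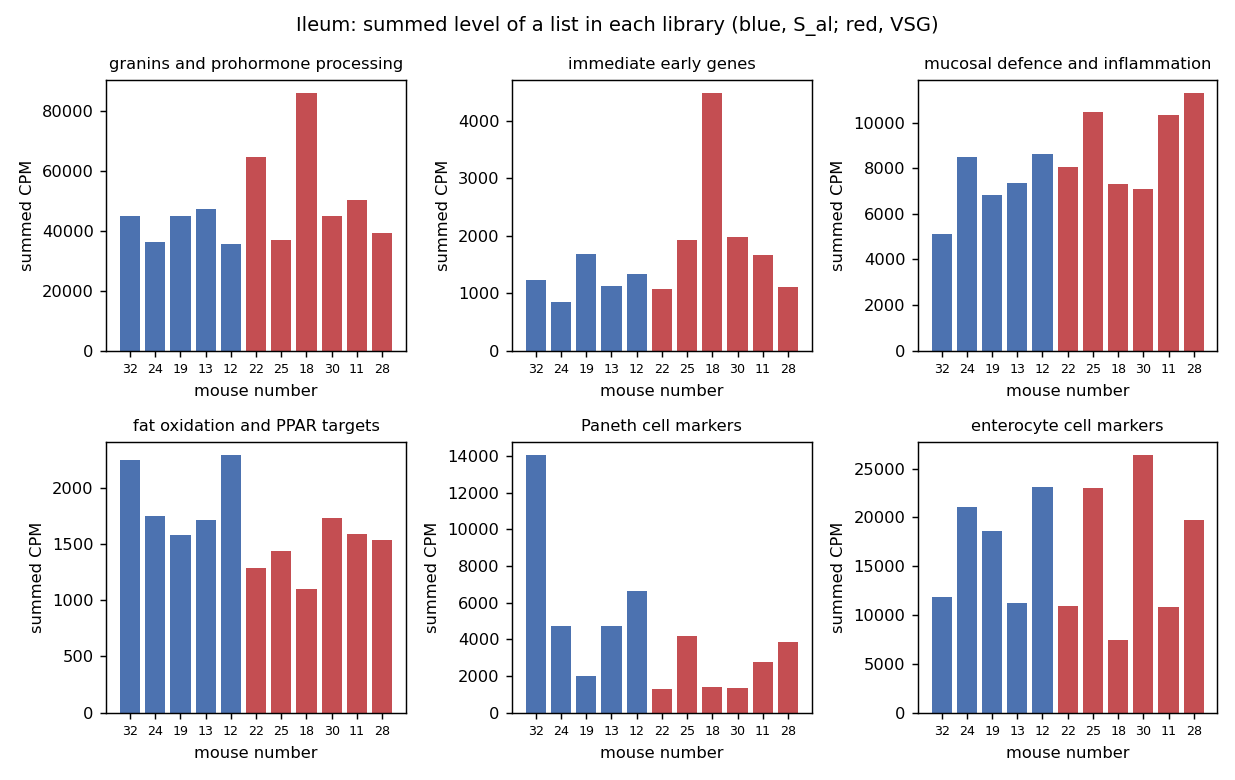
Summed level (CPM) of 6 gene lists in each ileum library of S_al (blue) and VSG (red) mice, by mouse number. VSG mouse 18 holds the highest sums of granin and immediate early genes (4483 CPM) and the lowest enterocyte sum (7460 CPM), and S_al mouse 32 the highest Paneth sum (14070 CPM).

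The study annotated 8 genes on these samples for their change after VSG, so their direction here is not independent evidence. In the ileum alone, Clps, Maob, Kirrel (a cell adhesion gene, -0.70) and Hjurp (a histone chaperone gene, -0.37) had an unadjusted p under 0.05 by edgeR and were lower. Zc3h12a, an RNase that limits inflammation (0.58), and Tifa, an adaptor of NF-kB signalling (0.76), were higher. Reg3b and Slc28a1 did not reach that level. Slc28a1, a nucleoside transporter gene, had 3.1, 3.93, 3.59, 3.58 and 4.66 CPM in S_al and at most 2.23 CPM after VSG, without overlap, and a log2 fold change of -1.23 (95% interval -2.48 to 0.01).

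The VSG difference in the ileum was tested against that in the other regions with the interaction term of the same fit. Most mice gave libraries to both regions compared, and edgeR treated these as independent, so its p-values here leave the pairing out. Against the duodenum edgeR called 0 genes at an adjusted p of 0.05, and 356 had an unadjusted p under 0.05 (2.35%). Against the colon 0 passed and 1221 had an unadjusted p under 0.05 (8.07%), with the lowest adjusted p at 0.376. Maff had the lowest p there, with 0.76 in the ileum and -0.34 in the colon (difference 1.09, edgeR unadjusted p = 7.57e-05, adjusted p = 0.376). Ppara had -0.64 in the ileum and 0.58 in the colon (edgeR unadjusted p = 0.000149, adjusted p = 0.376) and Glp1r 1.43 and -0.42 (edgeR unadjusted p = 0.001, adjusted p = 0.49), and none of the 3 differences passed adjustment. All 3 genes were also named by their p between VSG and S_al in the ileum. Those ileum values enter the differences, so the unadjusted p-values are not independent evidence.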

How the data were processed

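The authors sorted eYFP-positive cells and sequenced their RNA with a stranded total RNA kit. They aligned the reads with STAR 2.5.1 to GRCm38 and deposited 1 table of read counts per Ensembl gene, whole numbers without normalization, for 48 libraries. The strand setting of the counting is not given in the sources used here. Of 53465 genes, 53360 had an identifier in GENCODE M21, which gave symbols and coordinates. Promoters came from RefSeq.

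EdgeR 4.0.16 (R 4.3.3) was run on the counts (filterByExpr, TMM, 1 mean for each of 9 groups over all 48 libraries, robust quasi-likelihood fit, Benjamini-Hochberg adjustment over 15126 genes at 0.05). This follows the study's use of operation group in interaction with region, for which it used DESeq2. Standard errors were derived from F (absolute log2 fold change over its square root), and the common biological coefficient of variation was 0.302. Alternatives were DESeq2 1.42.0, its size factors, other filters, limma 3.58.1 voom with a random effect per mouse, fewer libraries, the second index as a covariate and each library left out. Scripts were tested on simulated data. The lowest chi-square per gene between libraries of 1 group was 19.9 over 25 pairs, so none was a duplicate.

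The members and gene lists were chosen with earlier results of these data known. Genes named were those called by edgeR or DESeq2 or with 1 library left out, the 10 of lowest p in each direction with a mean of at least 2 CPM, up to 4 per list at an unadjusted p under 0.05, the gut peptide and defining EEC genes and the genes annotated by the study. Some genes that met this rule are not reported here. Mouse numbers mark libraries of the same mouse in different regions. In 46 such pairs the correlation of deviations from the group means had a median of 0.138, with 28 pairs over 0.1, and voom's estimate within a mouse was 0.128. VSG and S_al hold different mice, so their contrast is not paired. EdgeR p-values rest on a spread within groups that is estimated for each gene over all 9 groups and 48 libraries. They do not measure the spread of the VSG and S_al ileum libraries alone.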

Additional observations from a re-analysis of the deposited data

Results flagged for a closer look

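Within each group of 5 or 6 libraries, total counts, list sums and named genes were each searched by Dixon's ratio for 1 library standing apart. Of 208 searches 25 gave such a library. Chance gives about 1 in 20 only for independent, normally spread values. The searches were not independent, because lists and genes overlap and many genes were named by p. No excess over chance is therefore read from the count. VSG mouse 18 accounted for 6 and S_al mouse 32 for 5 of them.

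In VSG mouse 18 the immediate early genes summed to 4480 CPM (the next VSG library held 1980) and the cAMP signalling genes to 1490 CPM (next 1280). Dusp5 was at 102 CPM (next 52), Zbtb16 at 41.8 CPM (next 3.26), Ppp1r15a at 89.8 CPM (next 23.9) and Fkbp5 at 174 CPM (next 75.4). In S_al mouse 32 Clps was at 70.5 CPM (next 26.7), Pnliprp2 at 189 CPM (next 65.3), Cadm4 at 27 CPM (next 16.9), Cyp4a10 at 7.74 CPM (next 1.5) and the pancreatic acinar markers at 7.08 CPM in sum (next 4.22). Of those acinar markers Cela1 alone was at 6.85 CPM in that library, and 11 of the 12 were under 1 CPM on average. Their sum in VSG libraries was 2.926 to 9.998 CPM.

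S_al mouse 24 was highest for the sum of other peptides (150 CPM), Lrg1 (0.935 CPM) and Pdx1 (8.41 CPM). S_al mouse 12 was highest for the cholesterol genes (2260 CPM) and Stard4 (156 CPM), S_al mouse 13 for immune markers (44.2 CPM) and S_al mouse 19 for Plekhh2 (132000 CPM). VSG mouse 11 was highest for the cholesterol genes (2000 CPM), tuft cell markers (58.6 CPM) and Tmem129 (12 CPM), VSG mouse 22 for Socs3 (132 CPM), and VSG mouse 25 for Saa1 (58.6 CPM), Sct (2910 CPM) and Pyy (1750 CPM).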

How the results depend on the processing

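The count of called genes was 0 in 14 of the 19 alternatives. It was 5 with DESeq2, and 0 to 3 with each library left out, with 3 without S_al mouse 19, 2 without S_al mouse 24 and 1 without S_al mouse 13 or VSG mouse 28. The replicate block (mouse as a random effect in limma voom) gave 0 and changed no call. Genes at an unadjusted p under 0.05 numbered 3106 without a filter on low counts (1192 higher and 1914 lower), 492 with the second index as a covariate and 639 to 1052 with each library left out. Between VSG and S_wm DESeq2 called 21 genes and between S_wm and S_al 6, against 7 and 0 by edgeR. The median of other peptides was 0.0584 with the replicate block, 0.269 in the main result and 0.0829 to 0.338 with each library left out. That of immediate early genes was 0.395 to 1.04 with each library left out, the lowest without VSG mouse 18. The log2 fold change of Plekhh2 was -14.9 to 0.86 with each library left out, with 0.86 without S_al mouse 19. Insl5 was -0.12 in the main result, 0.0159 with DESeq2, 0.278 with the index covariate and -0.33 to 0.19 with each library left out (positive without S_al mouse 13 or 12, or VSG mouse 11 or 28). The cause was not tested. The shares of variance lay between 9.52% and 15.7% (exact permutation p from 0.175 to 0.595). With a median standard error of 0.262 and 6 against 5 libraries, small differences could be missed. This holds also for genes of many counts, as Chgb had a standard error of 0.31. Intervals are for the log2 difference between the group means.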
